A study of Mus musculus with 40 samples.

Results

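Regions of the mouse genome that carried the repressive histone mark H3K27me3 without the active mark H3K4me3 were collected from brown adipose tissue. Peaks of H3K27me3 were merged over the lists of 8 mice, and a merged region on chromosomes 1 to 19 was kept where no H3K4me3 peak of any of the 8 mice overlapped it by 1 bp or more. Of 7060 autosomal H3K27me3 regions, 5204 met this rule, and the other 1856 overlapped H3K4me3. On any chromosome the series held 7108 H3K27me3 regions. The regions were thus chosen by the H3K27me3 and H3K4me3 peaks of these same lists. The rule used the presence of H3K27me3 and the absence of H3K4me3, so both are properties by selection and were not tested.

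The marks had been mapped by ChIP-seq, which sequences the DNA that an antibody to a modified histone pulls down, in wild type C57BL/6N mice, an inbred strain, at 20 weeks of age. The labels call the tissue iBAT, which the study's methods spell out as interscapular brown adipose tissue, while the text of the series names an inguinal depot. Mice 1 and 2 were warm on a normal chow diet (NCD), mice 4 and 5 were NCD mice kept at 4 °C for 24 h, mice 7 and 8 were warm on a high-fat diet (HFD), and mice 10 and 11 were HFD mice kept at 4 °C for 24 h. HFD was given for 12 weeks from 8 weeks of age. Each of the 4 conditions thus had 2 mice, each with 1 list per mark, and the methods also state that tissue of a pair of mice entered each experiment, so a list was treated as 1 replicate. The start sites of Ucp1, Cidea, Dio2, Pparg and Fabp4 carried H3K4me3 and H3K27ac within 1000 bp in 8 of 8 mice, as did those of Elovl3, Prdm16 and Adipoq in 7 or 8 mice for H3K4me3 and 4 to 7 for H3K27ac.

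H3K27me3 is laid down by Polycomb repressive complex 2 on genes of other lineages, which stay silent in a differentiated tissue. It often spreads beyond start sites over introns, intergenic stretches and whole clusters of developmental genes such as the Hox clusters, which specify position along the body axis. H3K4me3 marks start sites of active or poised genes, and both marks together are known as a bivalent state. H3K27ac marks active promoters and enhancers, and H3K4me1 marks enhancers. RNA was not analysed here, so whether a gene was silent is not shown here.

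The regions fell into sequences of very different kinds. The windows below hold the highest summit with 100 bases on either side, on the plus strand of GRCm38, and the capitals mark CpG dinucleotides, a feature of the islands to which Polycomb is known to be recruited. The first set stands for regions in or around developmental genes. It holds an intron of Pax6, an eye and brain regulator, and an exon of Lhx9, a gonad and brain regulator. It also holds an intergenic stretch upstream of Hoxa13, and a region upstream of Pax2, a kidney and eye regulator. The last is a region in the group around Mir9-3, a neural microRNA gene. The summits lay 11232, 3921, 12996 and 72748 bp from the nearest start site of Pax6, Lhx9, Hoxa13 and Pax2. The summit in the Mir9-3 group lay 70263 bp from its nearest protein-coding start site, that of Polg.
Pax6 intron, chr2:105687261-105687461: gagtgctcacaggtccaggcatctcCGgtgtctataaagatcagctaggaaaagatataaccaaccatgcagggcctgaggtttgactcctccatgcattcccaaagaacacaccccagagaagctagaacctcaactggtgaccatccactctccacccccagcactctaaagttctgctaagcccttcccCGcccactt
Lhx9 exon, chr1:138838408-138838608: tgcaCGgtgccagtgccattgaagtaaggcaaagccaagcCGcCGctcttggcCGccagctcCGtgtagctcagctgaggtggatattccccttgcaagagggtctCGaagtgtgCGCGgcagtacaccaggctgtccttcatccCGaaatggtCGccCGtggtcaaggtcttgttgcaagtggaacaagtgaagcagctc
Hoxa13 upstream, chr6:52273776-52273976: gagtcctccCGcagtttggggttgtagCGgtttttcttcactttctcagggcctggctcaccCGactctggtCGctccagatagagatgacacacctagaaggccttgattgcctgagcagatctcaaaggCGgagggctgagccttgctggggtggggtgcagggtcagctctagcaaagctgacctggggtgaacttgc
Pax2 upstream, chr19:44683197-44683397: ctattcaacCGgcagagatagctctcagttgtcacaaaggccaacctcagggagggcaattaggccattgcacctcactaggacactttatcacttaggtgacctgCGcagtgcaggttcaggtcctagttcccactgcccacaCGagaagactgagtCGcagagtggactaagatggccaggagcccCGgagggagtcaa
Mir9-3 group, chr7:79536525-79536725: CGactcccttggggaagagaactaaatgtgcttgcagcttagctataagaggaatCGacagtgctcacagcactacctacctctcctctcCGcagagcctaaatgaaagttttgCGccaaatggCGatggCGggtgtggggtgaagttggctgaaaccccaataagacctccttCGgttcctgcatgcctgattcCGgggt
The second set stands for regions that were present in many lists and lay at no developmental gene: tandem arrays in an intron of Ulk4 and upstream of BC035947, a soft-masked repeat downstream of Ly6c2, and a window downstream of Myl12b.
Ulk4 intron, chr9:121226992-121227192: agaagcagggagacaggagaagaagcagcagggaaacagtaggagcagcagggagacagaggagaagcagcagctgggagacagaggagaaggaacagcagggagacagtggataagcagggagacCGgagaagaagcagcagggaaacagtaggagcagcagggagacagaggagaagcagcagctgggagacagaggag
BC035947 upstream, chr1:78573793-78573993: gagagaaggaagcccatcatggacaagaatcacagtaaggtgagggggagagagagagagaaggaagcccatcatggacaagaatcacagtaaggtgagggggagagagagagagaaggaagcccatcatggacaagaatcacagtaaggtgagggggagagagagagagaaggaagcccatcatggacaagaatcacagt
Ly6c2 downstream, chr15:75085481-75085681: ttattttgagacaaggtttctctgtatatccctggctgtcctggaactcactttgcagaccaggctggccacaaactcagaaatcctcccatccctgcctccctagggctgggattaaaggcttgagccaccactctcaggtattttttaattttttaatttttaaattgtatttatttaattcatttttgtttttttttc
Myl12b downstream, chr17:70963659-70963859: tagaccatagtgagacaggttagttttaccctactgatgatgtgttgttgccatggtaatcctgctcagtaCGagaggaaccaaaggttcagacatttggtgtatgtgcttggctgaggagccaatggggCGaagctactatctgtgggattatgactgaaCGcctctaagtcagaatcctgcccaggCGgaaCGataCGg
In the first set the windows held 2 CpGs at Pax6, 11 at Lhx9, 5 at Hoxa13, 5 at Pax2 and 8 in the Mir9-3 group. In the second set they held 1 at Ulk4, 0 at BC035947, 0 at Ly6c2 and 6 at Myl12b, so the counts of both sets overlapped. The 31-base words of the Ulk4 window occurred a median of 92 times on chromosomes 1 to 19, X and Y, and those of the BC035947 window 16 times. The Myl12b window was a single copy by this measure, but 36 of its 187 15-base words also occurred, on the opposite strand, in the window of a region in an intron of Cntnap5b on chromosome 1.

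Most regions rested on a single list. Of the 5204 regions, 4596 (88.3%) had a peak in 1 list, 514 in 2, 69 in 3, 15 in 4, 8 in 5 and 2 in 6, and none had a peak in 7 or 8. Mouse 5 had a peak in 4668 of them and was the only mouse with one in 4081. Mouse 11 followed with 859 regions, 378 of them found in that mouse alone.
The other mice were far below. Mice 4, 8, 2 and 1 had a peak in 228, 107, 61 and 12 regions, and mice 7 and 10 in 4 each. Their H3K27me3 lists were short, between 20 and 309 peaks in total, so absence from them means only that no peak was listed. The lists do not give read depth. Without any list of mouse 5 the rule left 1432 regions.

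**Figure D1:**
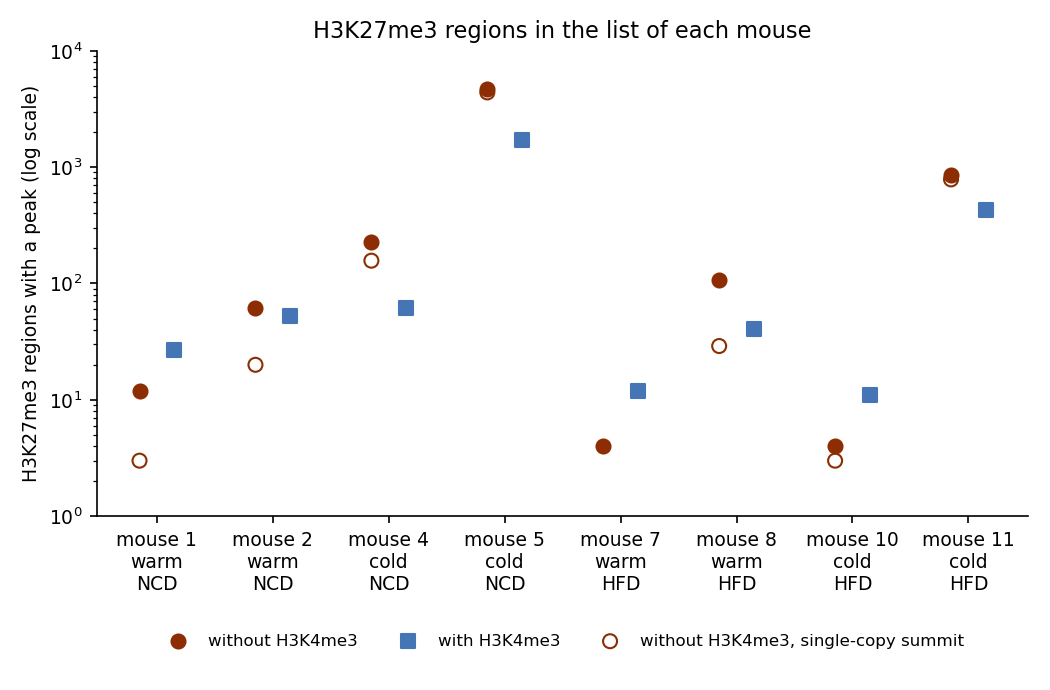
Number of autosomal H3K27me3 regions with a peak in the list of each mouse, on a log scale. Filled circles are regions without H3K4me3, and squares are regions with H3K4me3. Open circles are those without H3K4me3 that counted as single-copy by exact words of the summit window (mouse 7 had 0, not drawn). Mice 5 and 11 had 4668 and 859 regions without H3K4me3, and the other 6 had 4 to 228.

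The longest lists overlapped in part. Mice 5 and 11 shared 466 regions, which were 54.2% of those of mouse 11 and 9.98% of those of mouse 5. The fold enrichment over input given in the peak lists was higher for the shared regions than for the rest, with medians of 6.13 and 4.93 in mouse 5 and of 4.99 and 4.61 in mouse 11. Across the 466 shared regions the fold enrichments of both mice were weakly related (Pearson's r = 0.196, Spearman's rho = 0.130), and the points share the 2 libraries and their inputs. Mouse 4 shared 166 of its 228 regions with mouse 5 and 72 with mouse 11.

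A larger share of the regions in the short lists lay in repeated sequence. A region was called multi-copy where the median number of genomic occurrences of the 31-base words in the window around its summit was above 1. Of the regions of mice 5 and 11, 6.06% and 8.73% were multi-copy, against 31.1%, 67.2% and 72.9% of those of mice 4, 2 and 8. Mouse 1 had 75% of 12, mouse 7 had 100% of 4 and mouse 10 had 25% of 4. The share also moved with support. It was 6.70% among regions in 1 list, 13.04% in 2 or 3 lists and 76% of the 25 regions in 4 or more lists. The part of repeated sequence in the number of lists was not tested.

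Of the 10 best supported regions, 4 lay next to each other in an intron of Ulk4, a kinase-like gene, on chromosome 9. The strongest of these (chr9:121225328-121228549) had peaks in 6 mice, with fold enrichments of 10.9, 12.6, 7.41, 9.63, 3.59 and 5.59 in mice 1, 2, 4, 5, 8 and 11. Mice 7 and 10 had none there. The other region in 6 lists (chr15:75085489-75085887), downstream of Ly6c2, a surface protein gene of blood cells, had fold enrichments of 2.96, 5.00, 2.27, 4.30, 2.41 and 1.97 in mice 1, 2, 4, 5, 10 and 11. These were low values, and the window consisted entirely of soft-masked repeat. The remaining 5 had their nearest protein-coding start site at E030030I06Rik, BC035947, Myrip, Polr3k and Dynlt1b, between 6658 and 61735 bp away.

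Among single-copy regions, named after their values had been seen, only 6 had peaks in 4 or more lists. Besides those at Ly6c2 and Polr3k they lay at Pax6, Lhx9, 1700067P10Rik and Myl12b. The Pax6 region (chr2:105687030-105687655) had fold enrichments of 5.96 and 5.22 in the warm mice 2 and 8, and of 6.95 and 9.67 in the cold mice 4 and 5. The Lhx9 region (chr1:138837772-138838754) had 5.39 in the warm mouse 2, and 5.95, 8.65 and 4.08 in the cold mice 4, 5 and 11. Mouse 5 was highest at both, and each was found in cold and in warm mice. The Myl12b region (chr17:70963652-70963898) was narrow, at 247 bp, and had the highest fold enrichment of all. It had 16.0, 13.3, 26.7 and 13.2 in mice 1, 4, 5 and 10. Of the 58 single-copy regions in 3 or more lists, the next best supported lay in introns of Cntnap5b and Sfi1, a centrosome gene. The Cntnap5b summit lay 407438 bp from the start site of that gene. Its window shared sequence with the Myl12b window, where 36 of 187 15-base words recurred on the opposite strand. Both counted as single-copy because exact words were counted, which can miss diverged copies. The part of such copies in their fold enrichments was not tested. Then followed regions at Pou4f1, a sensory neuron regulator, Hoxa13, Nr2e1, a neural stem cell receptor, and Gata4, a heart and gut regulator.

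The design compares cold with warm and HFD with NCD. Since the regions were chosen by the peaks of these lists, the number of regions per mouse is given by condition as a description. Its geometric mean was 246 in cold and 23.7 in warm mice, a ratio of 10.4, and cold mice ranged from 4 to 4668 and warm mice from 4 to 107, so the groups overlapped. In HFD mice the geometric mean was 34.8 and in NCD mice 167, a ratio of 0.208, with ranges of 4 to 859 and 12 to 4668. The ratio of the cold effects on NCD and HFD was 13.5. The difference of cold from warm was 1.58 on the log10 scale without mouse 10 and 0.597 without mouse 5, against 1.02 with all mice. Without mouse 10 the interaction was -0.00595 on the log10 scale, against 1.13 with all mice.

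The share of a mouse's autosomal H3K27me3 peaks that lay in these regions also overlapped between the groups. It was 28.3% and 52.5% in mice 1 and 2, 78.1% and 73.1% in mice 4 and 5, 23.5% and 71.8% in mice 7 and 8, and 25% and 64.9% in mice 10 and 11. Mice 1, 7 and 10, with the shortest lists, had the lowest shares. The mean was 60.3% ± 24.1 in cold and 44.0% ± 22.4 in warm mice, and 46.3% ± 25.6 in HFD and 58.0% ± 22.7 in NCD mice (SD, n = 4 each).

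Almost no region followed a condition from mouse to mouse, but the short lists left little room for that. A peak was needed in all 4 mice of a group. Among the regions without H3K4me3, mice 7 and 10 had one in only 4 each and mouse 1 in 12. At most 4 of these regions could thus follow cold, warm or HFD, and at most 12 NCD. The counts therefore cannot tell whether regions depended on a condition. Across all 7060 H3K27me3 regions, 0.0425% had a peak in all 4 NCD mice and in no HFD mouse, 0.0142% the reverse, and 0% followed temperature in either direction. Of the 5204 regions without H3K4me3, 1 followed diet. It lay on chr8:20516599-20517220, 98164 bp from the start site of Gm21119, in sequence with 10 genomic copies, and had fold enrichments of 5.18, 4.21, 5.22 and 2.60 in mice 1, 2, 4 and 5. Allowing 1 mouse against the pattern, 53 regions were found in cold mice, or 1.02% of the regions against 1.05% of all H3K27me3 regions, and 13 in NCD mice, or 0.250% against 0.354%. These shares were close to the background. The single region that followed diet became 9 regions that followed diet or temperature without mouse 1, 2 without mouse 2, 3 without mouse 8, 53 without mouse 10 and 3 without mouse 11.

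The regions lay away from start sites more often than those with H3K4me3, which follows from the rule, since H3K4me3 marks start sites. The summit was within 1000 bp of a protein-coding start site in 15.4% of the 5204 regions and 50.1% of the 1856. It was within 5000 bp in 44.9% and 74.5%, and beyond 100000 bp in 8.03% and 3.07%. The median distance was 6422 and 1000 bp. Of the regions without H3K4me3, 7.11% had their summit in an exon of a protein-coding gene away from the start site, 29.6% in an intron and 47.9% between genes. Among those more than 1000 and up to 5000 bp from a start site, 57.3% lay downstream of it, against 78.1% among regions with H3K4me3.

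**Figure D2:**
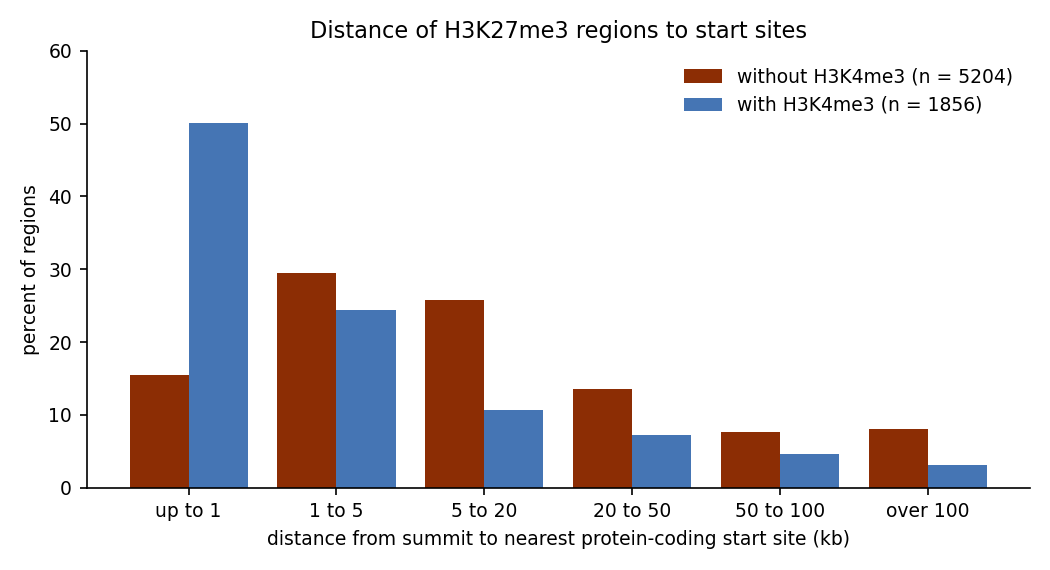
Percent of H3K27me3 regions by distance, in kb, from the summit to the nearest protein-coding start site, for the 5204 regions without H3K4me3 and the 1856 regions with it. Regions within 1 kb made up 15.4% and 50.1%, and those between 5 and 20 kb 25.8% and 10.7%.

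Many of the regions were neighbours of H3K27me3 regions with H3K4me3. Such a region lay within 5000 bp of 27.8% of them and within 50000 bp of 51.5%. The rule took each mark from the list of any mouse, so whether these neighbours were bivalent within a mouse was not tested. The nearest H3K4me3 peak of any mouse was a median of 5986 bp away (quartiles 1185 and 25487 bp). The regions were narrower than those with H3K4me3, with a median width of 369.5 bp (quartiles 280 and 557) against 512 bp (337 and 830.25), and together they covered 0.103% of the autosomes.

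The rule has a threshold of 1 bp. The regions nearest an H3K4me3 peak that still counted as without it had their closest start site at Ngfr, Ndrg4 and Gas8, with gaps of 0 bp, at Galr2, with 1 bp, and at Dlg4, with 3 bp, and each had a peak in 1 list. The 5 regions just outside, with the smallest overlap, were closest to Tfap2a, Siglec15, Chn1 and Col26a1, at 2 bp each, and Gng13, at 3 bp.

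CpG content lay between that of the autosomes and that of the regions with H3K4me3. The observed to expected ratio of CpG in these summit windows had a median of 0.269 (quartiles 0.141 and 0.435) in regions without H3K4me3, 0.493 (0.325 and 0.695) in regions with it, and was 0.194 over the autosomes. GC content was 53.7% and 58.2%, against 41.9% over the autosomes. The ratio did not run one way with support. It was 0.261 in regions of 1 list and 0.345 in those of 2 or 3, and 0.129 in the 25 regions of 4 or more, of which 19 were multi-copy. Among single-copy regions it was 0.369 in 2 or more lists and 0.414 in 3 or more. A median of 3.48% of the window was soft-masked repeat in all regions and 45.3% in those of 4 or more lists.

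Density differed between chromosomes. It was 2.11 regions per Mb over all autosomes, highest on chromosome 11 with 3.83 and chromosome 19 with 3.43, and lowest on chromosome 18 with 0.904 and chromosome 16 with 0.947. Across the 19 autosomes it went with the density of protein-coding genes (Pearson's r = 0.728, Spearman's rho = 0.795), which is a description, since the chromosomes share the same libraries.

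The regions came in groups. When regions closer than 50000 bp were chained, 3472 of 5204 (66.7%) fell in groups of 3 or more and 1531 (29.4%) in 100 groups of 10 or more, while 1050 stood alone. The regions with H3K4me3 are fewer, and 27.6% of them fell in groups of 3 or more by the same distance, so the difference in number was not allowed for. Of the 859 regions of mouse 11, 76.9% belonged to such groups, and of the 228 of mouse 4, 82.0%. These groups were chained over the regions of all mice, most of them with a peak in mouse 5. Grouping within a single list was thus not measured. Without any list of mouse 5, 57.3% of the 1432 regions fell in groups of 3 or more. Merging peaks over gaps of 1000 bp left 3455 regions, 49.6% of them in groups of 3 or more.

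Of the 8 largest groups, 4 were the Hox clusters. At Hoxb on chromosome 11, 50 regions spanned 210 kb (chr11:96092784-96302796) and took in the start sites of Hoxb13, Hoxb9, Hoxb8, Hoxb7 and Hoxb6, with Calcoco2 and Ttll6. Mouse 5 had 47 of the 50, mouse 11 had 7 and mouse 4 had 1. At Hoxc on chromosome 15, 39 regions spanned 78.1 kb (chr15:102908870-102986957) around Hoxc13, Hoxc12, Hoxc11, Hoxc10, Hoxc9 and Hoxc5, with 29, 11, 3 and 2 of them in mice 5, 11, 4 and 8.
Both groups took in posterior genes of their cluster, which act towards the tail end of the body. At Hoxa on chromosome 6, 38 regions spanned 108 kb (chr6:52215143-52323087) around Hoxa7, Hoxa9, Hoxa10, Hoxa11, Hoxa13 and Evx1, with 36, 13, 7 and 1 of them in mice 5, 11, 4 and 8. They covered 35.1% of the span, more than in any other of the 8 groups, and the widest single region, at 4027 bp, lay there. At Hoxd on chromosome 2, 33 regions spanned 97.1 kb (chr2:74649691-74746827) around Evx2 and Hox genes from Hoxd13 to Hoxd3, with 31, 11, 2 and 1 of them in mice 5, 11, 4 and 2.

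The Hox regions found in most mice lay at posterior genes. A region upstream of Hoxa13 (chr6:52273211-52275418) had fold enrichments of 5.65 in mouse 4, 8.65 in mouse 5 and 6.91 in mouse 11. One upstream of Hoxd11 (chr2:74680533-74681149) had 4.21, 7.97 and 4.27 in the same mice, and one in an intron of Hoxc11 (chr15:102955835-102956325) had 5.72, 5.58 and 3.91. These regions had peaks in cold mice alone, and the warm mice had lists of at most 165 peaks. A region upstream of Hoxd10 (chr2:74689011-74690218) did have a peak in a warm mouse, with 5.10 in mouse 2, 6.95 in mouse 5 and 4.27 in mouse 11.

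Of the remaining groups, 3 surrounded other developmental genes. At Pax2 on chromosome 19, 32 regions spanned 196 kb (chr19:44639920-44835451), with 28 in mouse 5, 6 in mouse 11 and 2 in mouse 4, and Pax2 was the only protein-coding gene that started inside. Support there was at most 2 lists, and more than 1 region had it. The one whose sequence is given above (chr19:44682797-44684071) lay 72748 bp upstream of Pax2, with fold enrichments of 6.95 in both mouse 4 and mouse 5. Another (chr19:44760427-44760898) lay in an intron of Pax2, 3210 bp from a start site, with 6.26 in mouse 5 and 5.37 in mouse 11. At Mir9-3 on chromosome 7, 32 regions spanned 114 kb (chr7:79494178-79607932) with no protein-coding start site inside. Mouse 5 had all 32, mouse 11 had 5 and mouse 4 had 1. The fold enrichments of mouse 5 there ran from 3.88 to 7.97. A group of 25 regions (chr19:45039840-45165399) lay around Tlx1, a regulator of spleen formation, with Kazald1, Sfxn3 and Pdzd7. Mouse 5 had 22 of these, mouse 11 had 7 and mouse 4 had 1. No region of the 8 groups had an H3K27ac or H3K4me1 peak in any mouse.

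**Figure D3:**
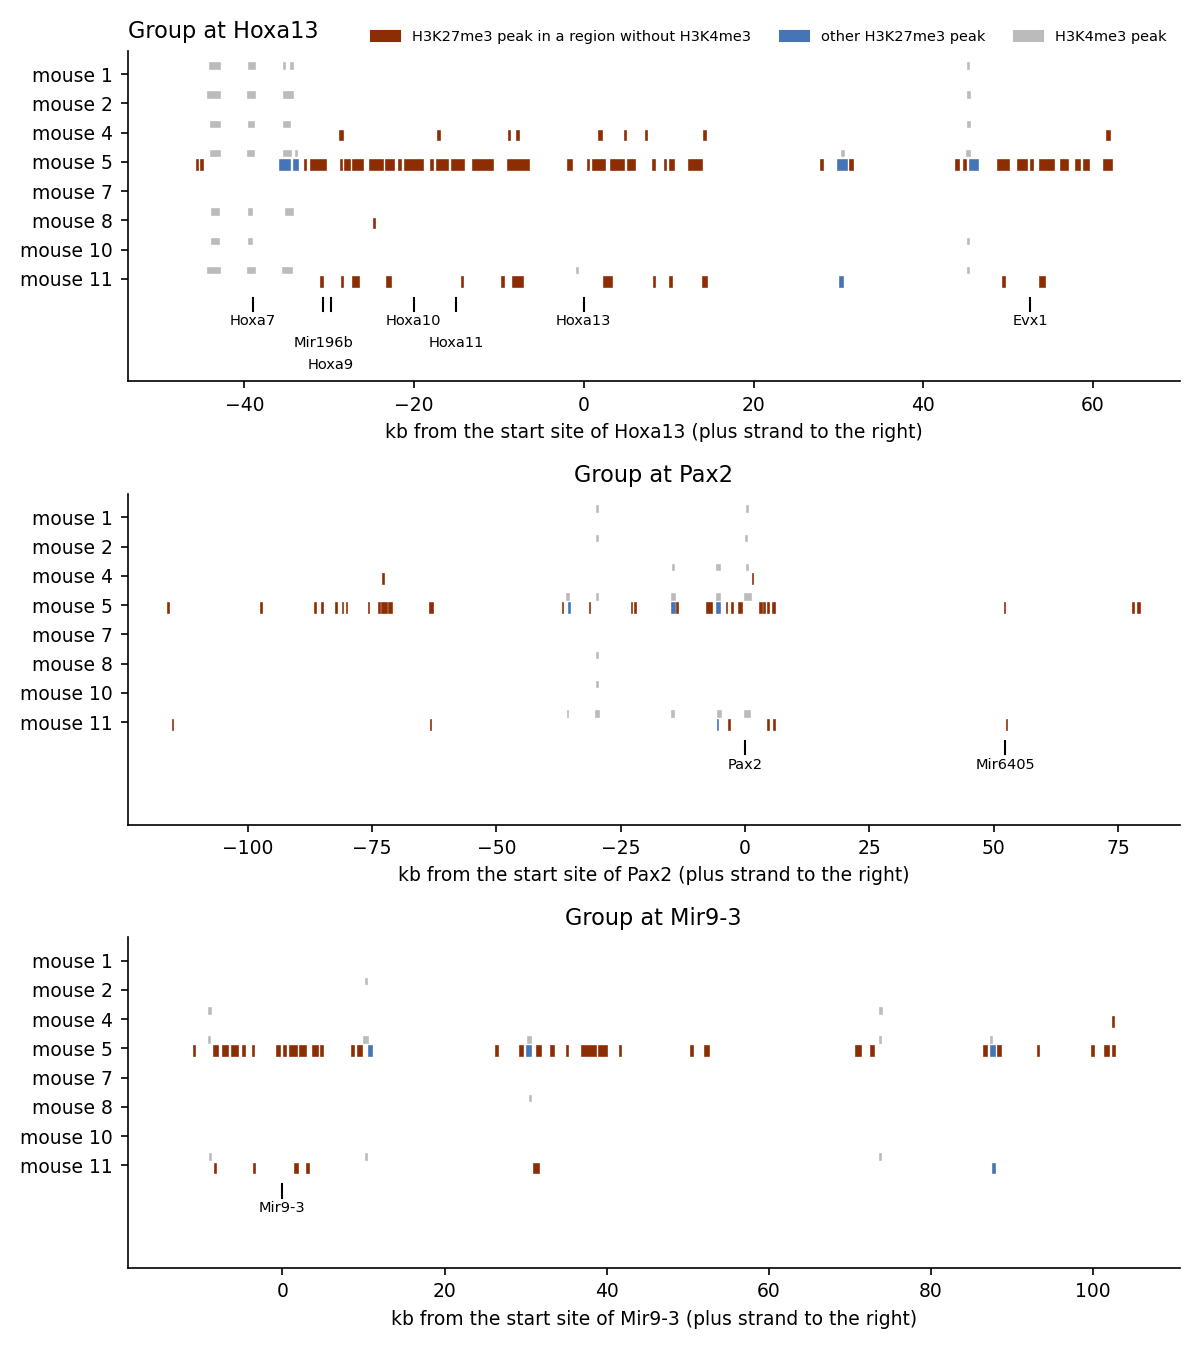
Maps of 3 groups, with position in kb from the start site of Hoxa13, Pax2 or Mir9-3 along the plus strand and 1 row per mouse. Dark bars are H3K27me3 peaks in regions without H3K4me3, blue bars other H3K27me3 peaks, grey bars H3K4me3 peaks, and ticks below mark start sites of protein-coding and microRNA genes. Mouse 5 had 37, 28 and 32 peaks in such regions inside the 3 maps, mouse 11 had 13, 6 and 5, and mice 1, 2, 7 and 10 had none.

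The second largest group held none of the listed developmental genes. On chromosome 3, 40 regions spanned 245 kb (chr3:96283449-96528021), 21 of them multi-copy, and mice 5, 11, 4 and 8 had 34, 13, 9 and 1. The protein-coding genes that start inside are Fcgr1, BC107364 and Hfe2, and the annotation also places U1 small nuclear RNA genes there, such as Rnu1b1, Rnu1b2 and Rnu1b6, which encode a part of the splicing machinery and lie in repeated copies. A region with peaks in 3 lists, the most that any region of this group had (chr3:96383760-96385247), had fold enrichments of 5.87, 7.97 and 6.20 in mice 4, 5 and 11.

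MicroRNA genes, looked at after the Mir9-3 group had been seen, were also near such regions. Of 2053 autosomal microRNA genes, 67 (3.26%) had a region within 5000 bp of their start. For protein-coding genes the share was 6.61%, 1374 of 20780. The genes with 2 or more single-copy regions nearby included those of the miR-9 and miR-196 families, the former known in neural progenitors and the latter encoded inside Hox clusters. Mir9-3 had 8 such regions, Mir9-1 on chromosome 3 had 5 and Mir9-2 on chromosome 13 had 2. Mir196a-1 had 8, Mir196a-2 7 and Mir196b 5. Their mature products, from RefSeq (GRCm38.p6), are shown with the seed, bases 2 to 8, in capitals, because members of a family share it.
miR-9-5p: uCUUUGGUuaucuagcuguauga
miR-196a-5p: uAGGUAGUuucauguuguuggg
miR-196b-5p: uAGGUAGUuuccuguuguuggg
miR-137-3p: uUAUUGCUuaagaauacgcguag
miR-153-3p: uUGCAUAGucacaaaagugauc
The 3 genes of miR-9 encode 1 mature sequence and so 1 seed, CUUUGGU. miR-196a-5p comes from 2 genes and shares the seed AGGUAGU with miR-196b-5p. These 6 genes on 6 chromosomes thus stand for 2 seeds. Mir137 and Mir153, which are expressed in neurons, had 2 regions each, all in mouse 5. The regions at Mir9-2 were found in mouse 5 alone, those at Mir9-1, Mir9-3 and Mir196a-1 in mice 5 and 11, those at Mir196a-2 also in mouse 8, and those at Mir196b also in mouse 4. Of the 67 genes, 40 had an entry in the RefSeq table. Mir124a-1, Mir124a-2 and Mir124a-3 had 5, 1 and 2 regions.

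Gene lists of other lineages were well represented. A gene counted where a region lay within 5000 bp of a start site, which held for 6.61% of protein-coding genes. Of 463 genes on 11 lists of other lineages, 264 (57.0%) had one, and 142 had one with a peak in a mouse other than mouse 5. In the lists that follow, a count without mouse 5 is of genes with a region of this latter kind. The rule that defined the regions still used the lists of mouse 5. Of the 5204 regions, 822 (15.8%) lay at these genes. When only peaks with a −log10 q of 5 or more entered, the counts fell by over 1.5 times in 6 of the 11 lists. They were then 6 for neuronal function genes, 6 for blood, 8 for muscle and heart, 10 for epidermis, 6 for germ line and 10 for ligands, against the counts given for each list in what follows. The lists were drawn up with results of these data known, so their counts are a description. Representation of these lists was not particular to regions without H3K4me3. Regions with H3K4me3 lay at 14.7% (germ line) to 58.1% (limb, skeleton and face) of the genes on a list, against 5.39% of all protein-coding genes. For neural transcription factors their share was 50.5% and for blood genes 36.4%. The difference in number between the classes was not allowed for.

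Neural transcription factors had the highest share. A region lay at 81 of 95 (85.3%), and at 58 without counting peaks of mouse 5. Mouse 11 alone had a region at 55 of them (57.9%, against 1.69% of all protein-coding genes) and mouse 4 at 18 (18.9%, against 0.399%). Of the 81 genes, 45 also had a region with H3K4me3 within 5000 bp, and 31 had no H3K4me3 peak within 1000 bp of a start site in any mouse. Isl2, a motor neuron regulator, had fold enrichments of 6.57, 9.45 and 5.76 in mice 4, 5 and 11. Fezf1, a regulator of olfactory development, had 6.51, 8.31 and 4.29 in the same mice. Pou4f1 had 6.00, 7.45 and 7.83. Mice 4, 5 and 11, the cold mice with the longest lists, thus shared these 3 regions. The region at Lhx9 given above, the best supported of the list, also had a peak in the warm mouse 2, and the warm mice 2 and 8 each had a region at 2 genes of the list.

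Genes of neuronal function were reached less fully. Of 58 channels, receptors and transmitter genes, 28 (48.3%) had a region, but 9 without mouse 5. Slc17a7, the vesicular glutamate transporter, had fold enrichments of 5.08, 6.05 and 4.27 in mice 4, 5 and 11. Gad1, which makes the transmitter GABA, had 9 regions within 5000 bp, the best with 6.61 and 4.29 in mice 5 and 11. Drd2, a dopamine receptor, had 1 region with 5.92 and 4.61.

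Lists of organs and body plan followed. A region lay at 21 of 27 urogenital and gonad genes (77.8%, 13 without mouse 5), 29 of 43 limb, skeleton and face genes (67.4%, 21), 25 of 39 Hox genes (64.1%, 15) and 21 of 38 endoderm genes (55.3%, 19). Foxa1, a regulator of gut and liver, had fold enrichments of 4.59, 7.97 and 6.14 in mice 4, 5 and 11, and Nkx2-3, which acts in gut and spleen, had 5.67, 6.95 and 6.91 in mice 2, 5 and 11. The warm mouse 2 thus had a peak at Nkx2-3, among only 11 protein-coding genes with a region of that mouse nearby. Col2a1, the cartilage collagen, and Dlx4 and Dlx6, regulators of the face and limb, each had a region in mice 4, 5 and 11.

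The shares were lower for muscle, skin, blood and germ line. They were 16 of 33 for skeletal muscle and heart genes (48.5%, 10 without mouse 5), 18 of 33 for epidermis and surface ectoderm (54.5%, 8), 13 of 33 for blood and immune lineage genes (39.4%, 3), 12 of 34 for germ line and pluripotency genes (35.3%, 3) and 34 of 76 for secreted signalling ligands (44.7%, 6). In the last 3 lists the share fell to 9.09%, 8.82% and 7.89% when a peak in a mouse other than mouse 5 was required, against 1.88% of all protein-coding genes. Nkx2-5, a heart regulator, had fold enrichments of 5.11, 5.10 and 5.34 in mice 4, 5 and 11. Prdm14, a germ cell regulator, had a region of 2728 bp at its start site with 4.30, 4.38 and 5.37. Runx3, which acts in lymphocytes, had 6.61 and 3.98 in mice 5 and 11, while the best supported regions at Gfi1, Gata2 and Bcl11b, further blood regulators, had a peak in mouse 5 alone. Wnt10a, Ihh, Gdf6 and Wnt3a, secreted ligands, each had a region in mice 5 and 11.

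Genes of the tissue itself had none. A region lay at 0 of 40 brown and general adipocyte genes and 0 of 25 housekeeping genes, and no region with H3K4me3 lay there either. The nearest region was 753931 bp from the start site of Ucp1, the thermogenic uncoupling protein, 318255 bp from Pparg, the master regulator of fat cells, and 1898118 bp from Adipoq. It was 106384 bp from Prdm16, a brown fat regulator, and 213491 bp from Actb. An H3K4me3 peak lay at the start site of 39 of the 40 adipocyte genes and of all 25 housekeeping genes in at least 1 mouse. Since no H3K27me3 region of either class lay within 5000 bp of their start sites, the rule removed none there.

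**Figure D4:**
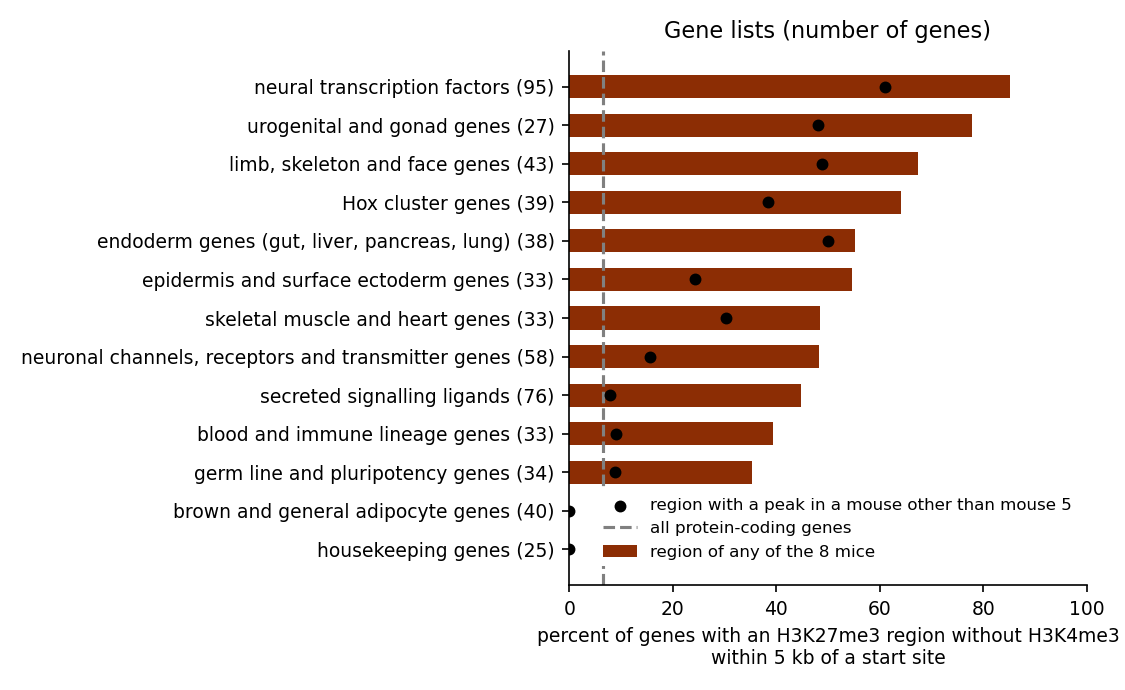
Percent of the genes on each list with an H3K27me3 region without H3K4me3 within 5 kb of a start site. Bars count regions of all 8 mice, points only regions with a peak in a mouse other than mouse 5, and the dashed line marks the 6.61% of all protein-coding genes. Neural transcription factors stood at 85.3% and adipocyte and housekeeping genes at 0%.

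Transcription factor families differed in how completely they were covered. All 6 Dlx and all 5 Gata genes had a region, as did 8 of 9 Pax, 12 of 14 Nkx, 5 of 6 Irx and 6 of 8 Lhx genes. Counting only regions with a peak in a mouse other than mouse 5, these were 4 of 6 Dlx, 3 of 5 Gata, 4 of 9 Pax, 9 of 14 Nkx, 1 of 6 Irx and 6 of 8 Lhx genes. Coverage was 22 of 41 for Fox, 6 of 12 for Tbx, 7 of 14 for Pou, 2 of 4 for Zic and 6 of 18 for Sox genes. Without peaks of mouse 5 it was 16 of 41 for Fox, 3 of 12 for Tbx, 3 of 14 for Pou, 1 of 4 for Zic and 2 of 18 for Sox genes. Each Dlx and Gata gene also had a region with H3K4me3 nearby, whereas 7 of the 12 Nkx genes had none. Pax6 had 10 regions within 5000 bp of its start sites, Pax2 9 and Pax9 8. Foxe1, a thyroid regulator, had fold enrichments of 10.4 in mouse 5 and 6.52 in mouse 11, and Tbx4, a hindlimb regulator, had 10.01 and 6.91. Of gene families that are not developmental regulators, a region lay at 3 of 1086 olfactory receptor genes (0.276%), 4 of 49 keratin genes (8.16%) and 0 of 54 clustered protocadherin genes, against 6.61% of all protein-coding genes.

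H3K27ac and H3K4me1, whose lists the rule did not use, were rare at the regions. The rule did split the compared classes by H3K4me3, with which H3K27ac is often found. An H3K27ac peak of the same mouse list overlapped 0, 2, 10, 8, 0, 13, 1 and 10 regions in mice 1, 2, 4, 5, 7, 8, 10 and 11. As a share of the 5204 regions this was 0.106% ± 0.102 (SD, n = 8), against 3.34% ± 1.85 of the regions with H3K4me3. The share was lower without H3K4me3 in 8 of 8 mice, with a mean difference of -3.23 percentage points (two-sided exact sign-flip permutation within mice, p = 0.00781, the smallest this design can give, adjusted 0.00781 over 2 tests). H3K4me1 peaks overlapped 1, 13, 8, 10, 0, 5, 1 and 1 regions in mice 1, 2, 4, 5, 7, 8, 10 and 11. The share was 0.0937% ± 0.0949 against 2.22% ± 2.39 (SD, n = 8), lower in 8 of 8 mice with a mean difference of -2.13 points (exact permutation p = 0.00781, adjusted 0.00781). Both marks were thus listed at 13 or fewer of these regions in every mouse, while the H3K27ac lists held 3224 to 40604 peaks and the H3K4me1 lists 12 to 27568. The H3K4me1 lists of mice 7 and 10 held only 12 and 18 peaks. In these mice H3K4me1 overlapped 0 and 1 regions without H3K4me3 and 6 and 4 with it, so their part in the test rests on very few peaks.

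The size of these differences moved with the choices made, and their direction did not. Without mouse 5 the differences were -5.15 and -5.74 points, and among regions with an H3K27me3 peak in the same mouse, of which mice 7 and 10 had 4 each, -28.0 and -30.0 points. When regions with an H3K4me3 peak within 1000 bp also counted as having it they were -2.04 and -1.31, when H3K4me3 had to cover at least 50% of a region -5.17 for H3K27ac, and for summits alone -1.34 for H3K4me1. H3K27ac is often found with H3K4me3 at promoters, and the rule split the classes by H3K4me3. The tests cannot tell the differences apart from that split. The classes also differed in width and in their share of start sites as given above, the part of which was not tested. Set against the genome, H3K27ac peaks covered 0.845% ± 0.475 of the autosomes (SD, n = 8) and contained 0.0913% ± 0.0839 of the regions' summits, less than the coverage in 8 of 8 mice. For H3K4me1 the values were 0.207% ± 0.212 and 0.0625% ± 0.0695, with less in 6 of 8 mice. The rule had taken out the H3K27me3 regions with H3K4me3, where both marks were more frequent. The comparison with the genome thus cannot be told apart from that split either.

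**Figure D5:**
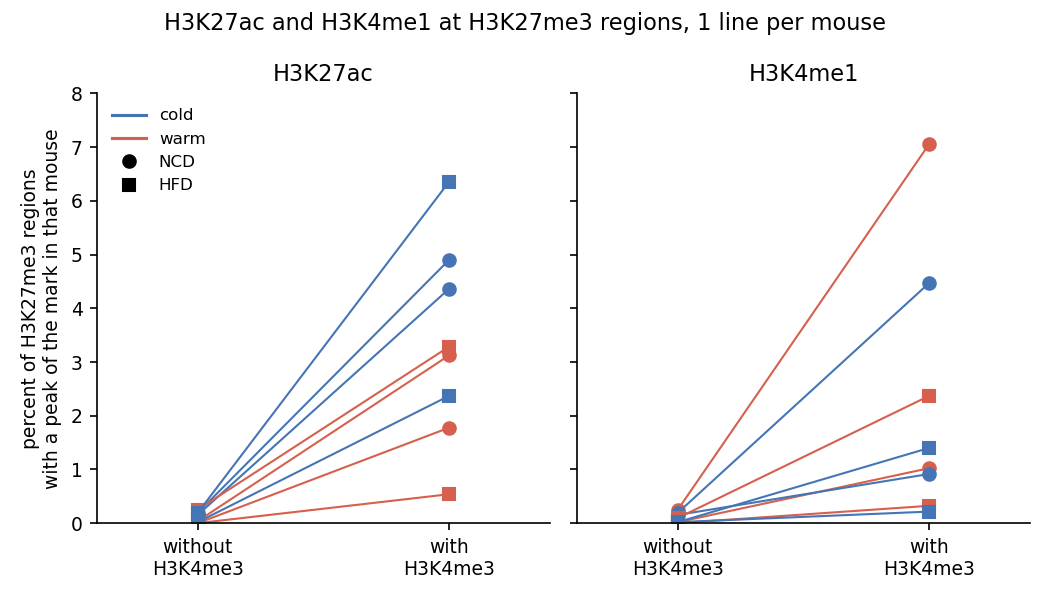
Percent of H3K27me3 regions overlapped by an H3K27ac peak (left) or an H3K4me1 peak (right) of the given mouse, for the 5204 regions without and the 1856 regions with H3K4me3. Each line is 1 mouse, coloured by temperature with the marker shape giving the diet, and all 8 lines rise from at most 0.250% to between 0.216% and 7.06%.

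No difference in these shares by temperature or diet passed the threshold. The share of regions with H3K27ac was 0.139% ± 0.0821 in cold and 0.0721% ± 0.120 in warm mice (SD, n = 4 each; exact permutation p = 0.429, adjusted 0.857 over 4 tests), and 0.115% ± 0.125 in HFD and 0.0961% ± 0.0915 in NCD mice (exact permutation p = 0.800, adjusted 1). The share with H3K4me1 came to 0.0961% ± 0.0901 and 0.0913% ± 0.114 by temperature (exact permutation p = 1, adjusted 1), and 0.0336% ± 0.0426 in HFD and 0.154% ± 0.0980 in NCD mice (exact permutation p = 0.114, adjusted 0.457). These shares rest on 0 to 13 regions a mouse and run with the lengths of the H3K27ac and H3K4me1 lists, whose part was not tested. Without mouse 1 the H3K4me1 difference of HFD from NCD was -0.165 points against -0.120 with all mice, with an unadjusted exact permutation p of 0.0286, the smallest that test can give. The other differences changed direction with single mice. The H3K27ac difference of HFD from NCD ranged from -0.0260 to 0.105 points and was negative without mouse 1, 2, 8 or 11. The H3K27ac difference of cold from warm ranged from -0.0640 to 0.128 and was negative without mouse 5, and that of H3K4me1 ranged from -0.297 to 0.0671 and was negative without mouse 1, 4, 5 or 7.

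Most regions with an activating mark had it in a single mouse. Of the 5204 regions, 31 had H3K27ac and 29 H3K4me1 in at least 1 mouse, 25 of each in only 1 mouse. H3K27ac was found in 4 mice at a region in an intron, 17193 bp from its nearest protein-coding start site, that of Cbx7 (chr15:79949772-79950296, mice 4, 5, 10 and 11). It was also found in 4 mice at a region upstream of Fli1, an endothelial and blood regulator (chr9:32543751-32543993, mice 4, 5, 8 and 11). Both had H3K27me3 in mouse 5 alone, with a fold enrichment of 4.56, and lay 319 and 238 bp from an H3K4me3 peak. A region at an exon of Sfi1 (chr11:3146209-3146523) had H3K4me1 in 6 mice and H3K27ac in 3, and H3K27me3 in mouse 4 alone with 3.44. In Lhx1, a kidney regulator, a region with H3K27me3 in mice 4, 5 and 11 had H3K4me1 in mice 2 and 5. In mouse 5 both H3K27me3 and H3K4me1 were thus listed in the same merged region. Whether the 2 peaks of that mouse overlapped each other was not measured.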

How the data were processed

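ChIP-seq for H3K4me3, H3K27ac, H3K4me1 and H3K27me3 gave 32 deposited peak lists, 1 per mark and mouse, from 40 libraries including 8 inputs without a list. Per the labels and the methods of the study, the authors trimmed reads with cutadapt, aligned them with Bowtie2 to GRCm38 and called peaks per sample against input with MACS2, and deepTools is also named. No version of these tools is stated in the sources used. The deposited columns used were the fold enrichment over input (a ratio), the −log10 q-value and the summit position, and the deposited integer score and −log10 p-value were not used. The lists hold no read counts, so depth is unknown. Since each list holds only what passed the peak caller, a missing peak is no measured 0.

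H3K27me3 peaks that overlapped by at least 1 bp were merged over the 8 lists. The numbers in the titles were read as mouse numbers. The 4 marks of a number were thus treated as paired, and mouse was the replicate block of the sign-flip test. Start sites came from GENCODE M21 basic on GRCm38, whose chromosome ends no peak passed. Sequences came from GRCm38.p6. Windows held 100 bases on either side of the highest summit, and copy number was the median count of 31-base words taken every 10 bases. Groups were chained at 50000 bp. Two-sided exact permutation tests of H3K27ac and H3K4me1 compared 4 with 4 mice over 70 assignments, and the sign-flip test used 256. P-values were adjusted by Benjamini-Hochberg within 2 and 4 tests. The number of regions per mouse and their share of a list, which use the peaks that chose the regions, are given without the tests planned for them. The statistics were tested on simulated data. Python 3.11.15, numpy 2.4.6, pandas 2.3.3 and matplotlib 3.10.9 were used.

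The regions, the 13 gene lists and the 15 families were chosen with earlier results of these data known. Named genes were, per list and family, up to 4 genes whose region within 5000 bp had the most lists, then the 10 regions in most lists, the 8 largest groups, the 5 regions with each activating mark in most mice, the regions that followed a condition, and the 5 regions on either side of the overlap threshold. Single-copy regions, the microRNA genes and the sequences printed were chosen after seeing the data. Alternatives were a −log10 q of at least 5, each mouse left out, a margin of 1000 bp or 50% cover for H3K4me3, merging over 1000 bp gaps, at least 2 lists, other chaining distances, summits in place of overlap, regions of the same mouse, no replicate block and single-copy regions. Promoter windows were not analysed, since fewer than 80% of the genes matched the reference table.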

Additional observations from a re-analysis of the deposited data

Results flagged for a closer look

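In warm mice, the percent of regions without H3K4me3 that overlapped an H3K27ac peak was 0.250 in mouse 8, or 13 regions, while the next highest of the 4 mice, mouse 2, had 0.0384, or 2 regions, and mice 1 and 7 had 0. The gap was 0.846 of the range. Of 24 groups examined this was the only one in which 1 sample stood so far apart, and chance flags about 1 in 20 groups, or 1.2 here. Mouse 8 also had the longest H3K27ac list of the warm mice, with 33798 peaks, and the part of that was not tested.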

How the results depend on the processing

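The number of regions was 5204, and 1074 when only peaks with a −log10 q of 5 or more entered, 3455 with peaks merged over 1000 bp gaps, 608 with at least 2 lists, and 1432 to 5214 with 1 mouse left out, the lowest without mouse 5. The percent in groups of 3 or more was 50.0 at the stricter q, 49.6 with merging, 58.9 with chaining at 20000 bp, and 57.3 to 66.7 with 1 mouse left out. Regions that followed a condition numbered 0 at the stricter q, 0 among single-copy regions, 66 with 1 mouse against allowed, and 1 to 53 with 1 mouse left out. Of the list counts, that of blood genes was 5 and that of ligands 22 with merging, and that of ligands 22 with a margin of 1000 bp. With every list of mouse 5 left out, Hox genes numbered 16, neuronal function genes 9, blood genes 7, germ line genes 4 and ligands 10. Here the regions were defined anew, so the counts can differ from those given without mouse 5 for each list above.

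On the log10 scale the difference of cold from warm in regions with a peak ranged from 0.597 to 1.58 with 1 mouse left out, and the interaction from -0.00595 to 2.34. The difference in the percent of regions with H3K27ac for cold from warm was -0.0698 at the stricter q, and -0.0640 to 0.128 with 1 mouse left out. For H3K4me1 it was -0.116 and -0.297 to 0.0671. The HFD from NCD difference in H3K27ac was -0.00521 among single-copy regions and -0.0260 to 0.105 with 1 mouse left out, and in H3K4me1 -0.518 to -0.0915. The cause of these changes was not tested.

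The differences of -3.23 and -2.13 points in H3K27ac and H3K4me1 between regions without and with H3K4me3 kept direction and call in every alternative run. With no replicate block, that is without the pairing by mouse, the exact permutation p were 0.000155 and 0.000311, and the pairing changed no call. The unknown depth of the short lists limits every count per mouse.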
